A study of Homo sapiens with 9 samples.

Results

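The subunits of the transcription factor NF-kB and genes that feed back on it were examined in LAN-5, a human neuroblastoma line of neuroblast-like cells, after exposure to extracellular S100B. The members were 8 genes chosen by symbol alone, with no intensity filter: the subunits NFKB1, NFKB2, RELA and RELB, the inhibitors NFKBIA, NFKBIE and TNFAIP3, and the target gene CD83. Each had 1 probe set with that single symbol, so they make up 8 of the 8746 probe sets and 8 of the 7713 genes compared. RNA from whole cultures was hybridised to 9 single-colour oligonucleotide arrays. There were 3 arrays of untreated LAN-5 cells, 3 of LAN-5 cells given S100B at 0.5 nM and 3 of LAN-5 cells given S100B at 5 µM, and the series describes the 3 of each group as biological replicates. All groups shared the line and its culture medium. The length of the treatment is not given in the sources used here, and neither is any vehicle added to the untreated cells. All values are log2 signals as the authors normalised them. The signals of different probe sets have no common scale, so levels were compared between arrays and not between genes. The probe sets of NFKB2, RELA, NFKBIA and TNFAIP3 are of a type whose probes can bind several transcripts.

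NF-kB is a family of dimers built from the Rel proteins RELA, RELB and REL and from p50 and p52, which are processed from the NFKB1 and NFKB2 precursors. In resting cells IkB proteins such as the products of NFKBIA and NFKBIE hold the dimers in the cytoplasm, and IkB kinase marks these inhibitors for destruction when a receptor is engaged. Active NF-kB then induces NFKBIA, NFKBIE, NFKB1, NFKB2, RELB and the ubiquitin-editing enzyme TNFAIP3 (A20), which damp or reshape the response. S100B, an EF-hand protein released by astrocytes, binds the receptor RAGE, the product of AGER, which is known to signal to NF-kB in neural cells.

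Promoter sequences are shown for 4 members that are textbook targets of the factor, so that a reader can see the sites through which a response would usually be read. RefSeq start-site windows of 300 bases, 250 before and 50 after a start, were available for 6 of the 8 genes in build GRCh38.p14, in 11 windows. Windows of RELB and NFKBIE were not used here. Both strands were searched for the kB consensus and for no other motif. It matched in 6 of these windows, from 5 genes, against 11.3% of 35116 windows of all genes. Each sequence runs 5′ to 3′ along the gene, and the capitals mark matches, merged where they overlap. The windows are chr14:35404700-35404999 on the minus strand for NFKBIA, chr6:137867009-137867308 on the plus strand for TNFAIP3, chr10:102394328-102394627 on the plus strand for NFKB2 and chr6:14117522-14117821 on the plus strand for CD83.
NFKBIA: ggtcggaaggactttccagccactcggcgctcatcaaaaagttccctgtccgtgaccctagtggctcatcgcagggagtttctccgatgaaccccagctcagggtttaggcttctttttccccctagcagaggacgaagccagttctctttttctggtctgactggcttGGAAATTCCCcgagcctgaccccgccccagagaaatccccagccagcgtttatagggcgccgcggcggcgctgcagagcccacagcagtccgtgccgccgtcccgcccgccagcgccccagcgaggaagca
TNFAIP3: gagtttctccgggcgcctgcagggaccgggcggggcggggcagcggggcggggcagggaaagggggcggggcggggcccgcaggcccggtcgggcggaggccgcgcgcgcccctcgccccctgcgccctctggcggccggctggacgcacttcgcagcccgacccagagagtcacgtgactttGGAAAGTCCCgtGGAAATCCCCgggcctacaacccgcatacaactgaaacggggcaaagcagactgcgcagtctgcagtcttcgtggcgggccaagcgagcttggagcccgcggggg
NFKB2: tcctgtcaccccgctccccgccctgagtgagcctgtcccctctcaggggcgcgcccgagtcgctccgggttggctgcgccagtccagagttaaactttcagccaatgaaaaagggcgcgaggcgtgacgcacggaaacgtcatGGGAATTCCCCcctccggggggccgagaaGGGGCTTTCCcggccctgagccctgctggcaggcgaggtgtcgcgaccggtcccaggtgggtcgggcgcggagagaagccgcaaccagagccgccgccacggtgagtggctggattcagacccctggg
CD83: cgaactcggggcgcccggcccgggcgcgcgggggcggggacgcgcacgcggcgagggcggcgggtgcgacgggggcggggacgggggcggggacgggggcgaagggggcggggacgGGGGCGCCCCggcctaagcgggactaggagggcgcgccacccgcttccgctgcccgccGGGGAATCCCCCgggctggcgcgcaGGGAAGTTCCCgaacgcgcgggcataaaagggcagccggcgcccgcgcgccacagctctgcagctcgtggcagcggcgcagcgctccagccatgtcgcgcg
The NFKBIA window held 1 match, which began 81 bases before the start site. TNFAIP3 held 2, beginning 67 and 55 bases before its start. The NFKB2 window shown, 1 of 3 for this gene, held 2 separate stretches, another also held 2 and the other none. The CD83 window shown held 3 stretches, and the other window of this gene none. NFKB1 held 1, beginning 49 bases before one of its start sites, and the 2 RELA windows held none. These matches describe the letters of the reference sequence, and binding was not measured.

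The arrays were alike across probe sets, with correlations of 0.996 to 0.998 within groups and 0.996 to 0.998 between groups. Of 11 measured adrenergic neuroblastoma markers, 10 had a mean over the 9 arrays above 5.95 log2, the bound of the dimmest 2916 probe sets, among them the transcription factors PHOX2A, HAND2 and GATA3. TH, an enzyme of catecholamine synthesis, lay within the dimmest set, and DBH, another such enzyme, lay above the bound. Of 10 measured leukocyte markers, PTPRC, CD14 and TYROBP lay within it and 7 lay above the bound, namely CD3E, CD53, CD74, CD79A, HLA-DRA, ITGB2 and LCP1. Within it lay also 6 of 11 mesenchymal or Schwann-like markers and 4 of 8 astrocyte and oligodendrocyte markers. Among the members, NFKB2 and TNFAIP3 lay in the dimmest set, with means of 5.57 and 5.92 log2. Signal over background could not be assessed from the values used here. In limma's fit of all 9 arrays, with Benjamini-Hochberg adjustment over 8746 probe sets, 16 probe sets passed an adjusted p of 0.05 at 5 µM against untreated, 1 of them higher and 15 lower. At 0.5 nM against untreated 0 passed, by limma and by an ordinary linear model without moderation, while 353 had an unadjusted p under 0.05.

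NFKBIA, which encodes the inhibitor IkB-alpha and is among the fastest targets of NF-kB, was the member with the largest difference from untreated cells at 5 µM. The NFKBIA signal was 8.11, 8.28 and 8.31 log2 on the untreated arrays, 8.31, 8.31 and 8.40 on the arrays at 0.5 nM, and 8.31, 8.36 and 8.59 on those at 5 µM. The lowest values of both doses lay above the highest untreated value, by 0.00748 log2 in each case. They were the same tied value, 8.31345 log2, on replicates 1 and 2 at 0.5 nM and replicate 1 at 5 µM. The gaps at the doses are thus not separate observations. Exact ties between groups also occurred for every other member except CD83. Against untreated cells the log2 fold change was 0.19 ± 0.08 (SE, n = 3 per group) at 5 µM, or 114.0% of the untreated level, with a 95% interval of 0.01 to 0.37. It did not pass over all probe sets (limma, unadjusted p = 0.0387, adjusted p = 0.608). Replicate 3 at 5 µM was the highest of the 9 arrays and untreated replicate 1 the lowest. The fold change was 0.10 without the first of these and 0.13 without the second. The mean signal of the spike-in controls was 7.19 log2 on untreated replicate 1, the lowest of all, and 7.38 to 7.64 on the remaining 8 arrays. The part of this in the result was not tested. At 0.5 nM the NFKBIA fold change was 0.11 ± 0.08 (SE over 3 arrays a group, limma's adjusted p = 0.979), and 0.05 without untreated replicate 1. In RNA from whole cultures, a change in the number of cells that express a gene and a change in its RNA per cell cannot be told apart.

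The other inhibitors lay close to their untreated levels. NFKBIE encodes IkB-epsilon, a further cytoplasmic inhibitor of Rel dimers. It read 6.61, 6.67 and 6.67 log2 in untreated cells, 6.66, 6.67 and 6.79 at 0.5 nM and 6.58, 6.67 and 6.68 at 5 µM. The 3 groups overlapped, and the highest array was a single one at 0.5 nM. Its log2 fold change against untreated was -0.0036 at 5 µM, with a 95% interval of -0.12 to 0.11 (limma's adjusted p = 0.996). TNFAIP3, which removes activating ubiquitin chains upstream of IkB kinase, read 5.86, 5.95 and 5.96 log2 in untreated cells, 5.80, 5.94 and 5.99 at 0.5 nM and 5.80, 5.94 and 6.07 at 5 µM. The lowest and the highest of the 9 arrays were both at 5 µM. Its fold change was 0.01 log2 with an interval of -0.15 to 0.18 (limma's adjusted p = 0.983).

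**Figure D1:**
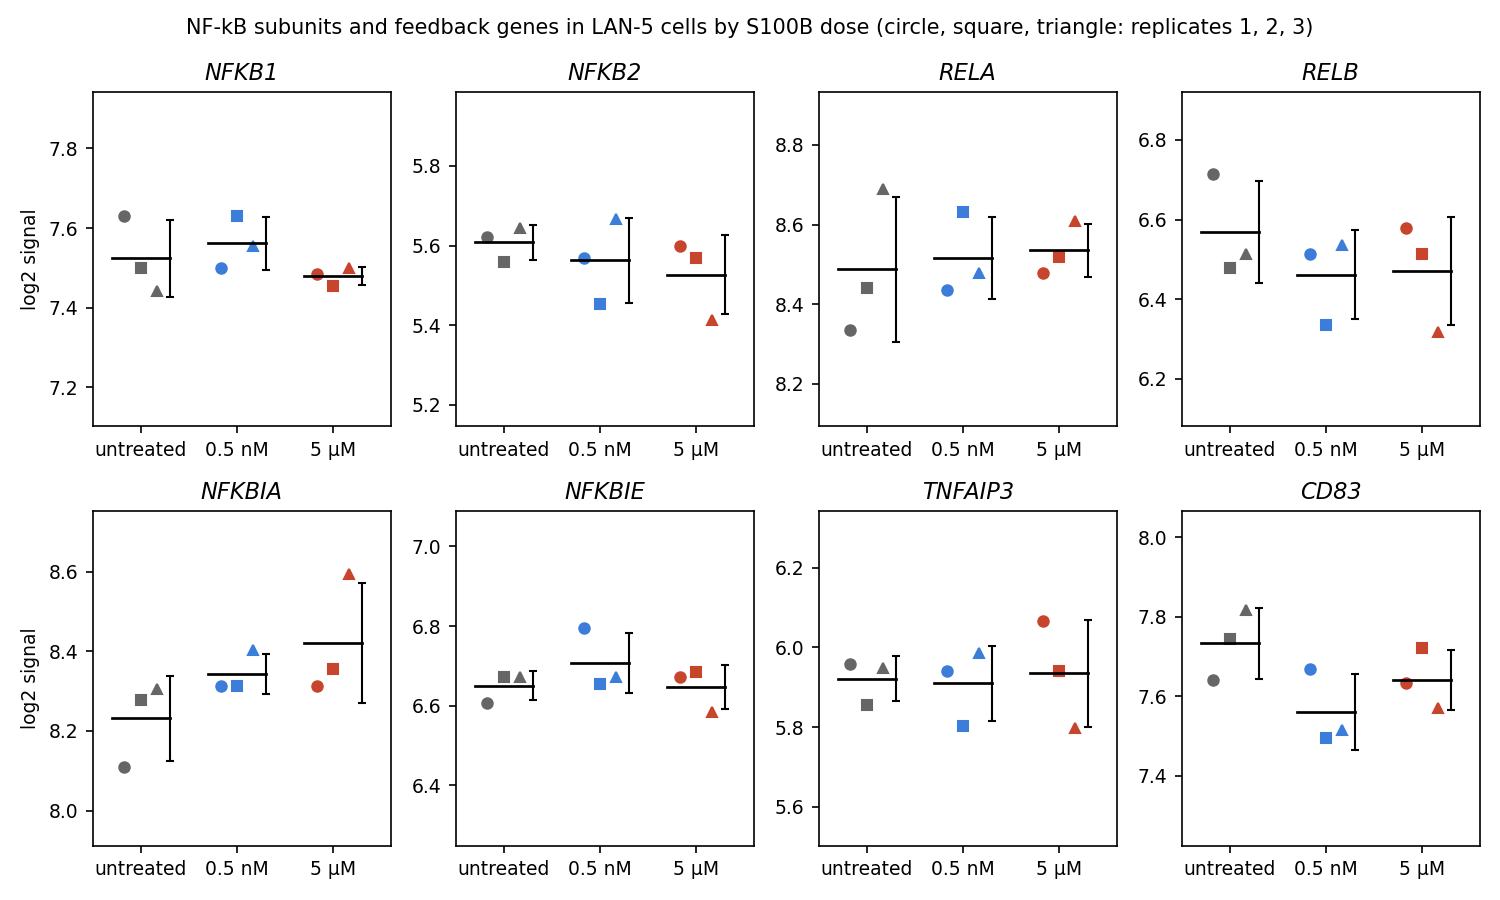
Log2 signal of the 8 members on each array (y axis) by group (x axis, untreated, 0.5 nM and 5 µM). Symbols are replicates, horizontal lines group means and bars their SD over 3 arrays, and every panel spans the same log2 range. NFKBIA at 5 µM runs from 8.31 to 8.59 against 8.11 to 8.31 in untreated cells, and CD83 at 0.5 nM from 7.49 to 7.67 against 7.64 to 7.82.

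CD83, a membrane glycoprotein known as a marker of mature dendritic cells and as an NF-kB target, was the member with the largest difference at 0.5 nM. It read 7.64, 7.74 and 7.82 log2 in untreated cells, 7.49, 7.52 and 7.67 at 0.5 nM and 7.57, 7.63 and 7.72 at 5 µM. Of the 3 arrays at 0.5 nM, 2 lay below all untreated arrays, and 1 overlapped them. The log2 fold change against untreated was -0.17 ± 0.07 (SE, n = 3 per group) at 0.5 nM, or 88.6% of the untreated level, with a 95% interval of -0.32 to -0.03. It did not pass over all probe sets (limma, unadjusted p = 0.0258, adjusted p = 0.979). At 5 µM it was -0.09 ± 0.07 (SE over 3 arrays a group, limma's adjusted p = 0.771), and it ran from -0.14 to -0.05 when single arrays were left out. The means were not in dose order, since the value at 5 µM lay between the other two. The leukocyte marker list as a whole averaged 6.25 to 6.36 log2 per array in untreated cells. It averaged 6.25 to 6.33 at 0.5 nM and 6.22 to 6.34 at 5 µM. At each dose 2 of its 10 measured genes lay below all untreated arrays and 0 above. Over all probe sets, 13% at 5 µM and 7.65% at 0.5 nM did not overlap, in either direction. Within the list CD74, the invariant chain of class II molecules, had the smallest p at both doses. Its fold change was -0.32 ± 0.10 log2 at 5 µM and -0.25 ± 0.10 at 0.5 nM (SE over 3 arrays a group, limma's adjusted p of 0.451 and 0.979). ITGB2, at 0.14 log2, was the highest of the list at 0.5 nM. The part of these markers in the CD83 values was not tested.

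The subunits that form the classical dimer did not pass at either dose. RELA encodes p65, the subunit with a strong transactivation domain. It read 8.33, 8.44 and 8.69 log2 in untreated cells, 8.44, 8.48 and 8.63 at 0.5 nM and 8.48, 8.52 and 8.61 at 5 µM. Both treated groups lay inside the untreated range. The fold change at 5 µM was 0.05 log2, with an interval of -0.15 to 0.25 (limma's adjusted p = 0.939). NFKB1, the precursor of p50, read 7.44, 7.50 and 7.63 log2 in untreated cells, 7.50, 7.55 and 7.63 at 0.5 nM and 7.45, 7.48 and 7.50 at 5 µM. Its 5 µM arrays were the closest together of any group, with an SD of 0.02, and lay within the untreated range. Its fold change at 5 µM was -0.05 log2, with an interval of -0.17 to 0.08 (limma's adjusted p = 0.89).

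The subunits of the alternative pathway, in which NFKB2 is processed to p52 and pairs with RELB, had lower means at both doses, within the spread of the arrays. RELB read 6.48, 6.51 and 6.71 log2 in untreated cells, 6.33, 6.51 and 6.54 at 0.5 nM and 6.32, 6.51 and 6.58 at 5 µM. In each treated group 1 of 3 arrays lay below all untreated arrays. The fold change was -0.11 ± 0.09 log2 at 0.5 nM and -0.10 ± 0.09 at 5 µM (SE over 3 arrays a group, limma's adjusted p of 0.979 and 0.83). Without untreated replicate 1 the RELB fold change was -0.03 at both doses. It was -0.04 at 0.5 nM without replicate 2 of that dose and -0.02 at 5 µM without replicate 3 of that dose. NFKB2 read 5.56, 5.62 and 5.65 log2 in untreated cells, 5.45, 5.57 and 5.67 at 0.5 nM and 5.41, 5.57 and 5.60 at 5 µM. Its groups overlapped, with fold changes of -0.05 at 0.5 nM and -0.08 at 5 µM (limma's adjusted p of 0.979 and 0.809).

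At 5 µM against untreated, 0 of the 8 members passed by limma, against 0.183% of all probe sets. The arrays of the groups did not overlap for 1 member, NFKBIA, against 13% of all probe sets in either direction and 3.78% in the direction of a rise. At an unadjusted p of 0.05 the count was 1 of 8, against 7.71% of all. The fold changes ran from -0.10 to 0.19 log2 with a median of -0.02, and the median over all probe sets was also -0.02. They were above 0 for 3 of 8 members, against 40.9% of all probe sets. The 95% intervals of the members together ran from -0.29 to 0.37 log2, so that the largest change any of them allows was a rise of 29.0% for NFKBIA and a fall of 18.5% for RELB. These intervals are not adjusted for the number of members.

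At 0.5 nM against untreated, 0 of the 8 members passed by limma, and 0% of all probe sets did. The arrays did not overlap for 1 member, again NFKBIA, against 7.65% of all probe sets in either direction and 2.25% in the direction of a rise. At an unadjusted p of 0.05 the count was 1, CD83, against 4.04% of all. The members' median was 0.0084 log2 against -0.01 over all probe sets, with 4 of 8 above 0, against 41.6% of all. The intervals ran from -0.32 to 0.29 log2, which allows a rise of up to 22.2% for NFKBIA and a fall of up to 20.0% for CD83. The comparisons of both doses with untreated cells share the untreated arrays, so the members' values at the doses are not independent of each other.

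The doses were set against each other to ask whether the micromolar cells differed from the nanomolar ones. Of the 8 members 0 passed by limma, against 0.16% of all probe sets, and the arrays of every member overlapped, against 7.11% of all probe sets that did not. Without moderation 0 members passed, and 0 had an unadjusted p under 0.05 by limma, against 4.44% of all probe sets. They were above 0 for 5 of 8 members, against 47.2% of all. The fold changes of 5 µM over 0.5 nM ran from -0.08 for NFKB1 to 0.08 for CD83. NFKBIA was 0.08 ± 0.08 log2 higher in mean at 5 µM (SE, n = 3 per group), with an interval of -0.10 to 0.26 (limma's adjusted p = 0.988). All 8 intervals together ran from -0.21 to 0.26 log2. A test over the 3 groups at once gave the smallest p of the members for CD83 (limma's moderated F, adjusted p = 0.896) and the next for NFKBIA (adjusted p = 0.916), where 0.16% of all probe sets passed.

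**Figure D2:**
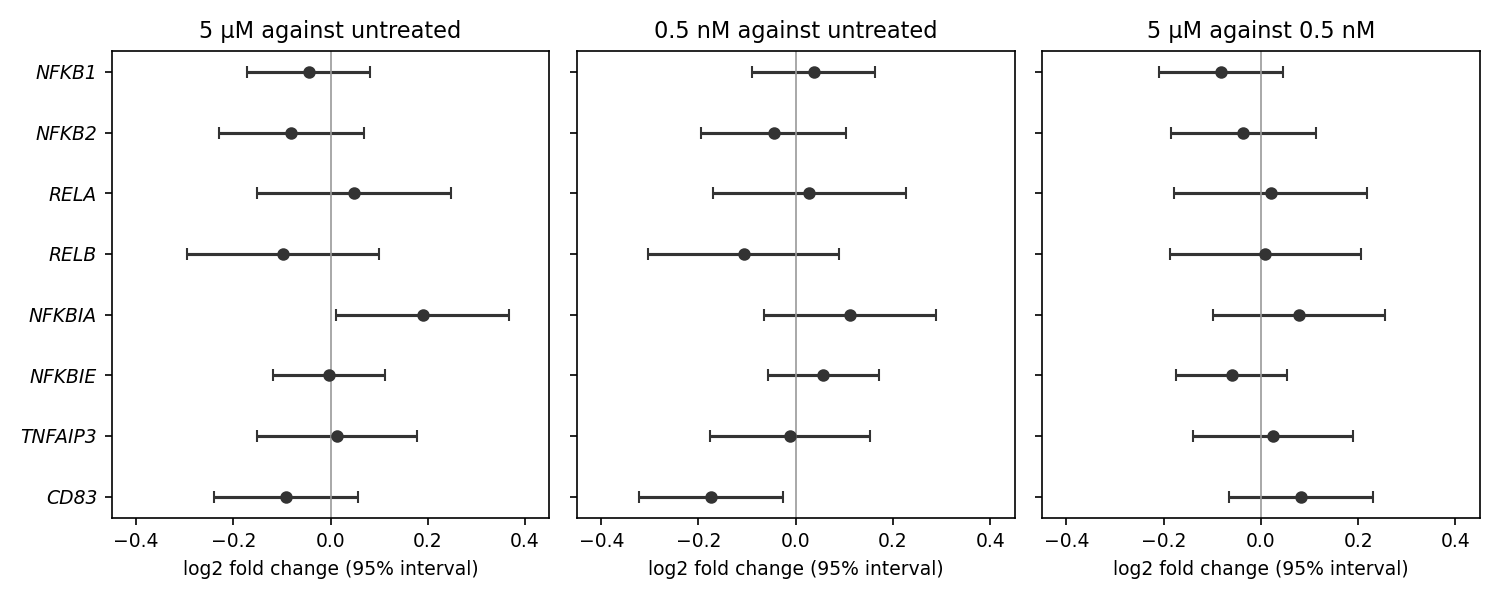
Log2 fold change of each member in the 3 comparisons (x axis), with points for the estimate and bars for the 95% interval of limma's fit. Only the NFKBIA interval at 5 µM, 0.01 to 0.37, and the CD83 interval at 0.5 nM, -0.32 to -0.03, leave out 0, and neither gene passed after adjustment over 8746 probe sets.

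Among the 28 pairs of members, the 3 with the smallest p for a correlation over the 9 arrays were those among NFKB2, RELB and TNFAIP3, and 0 of the 28 had an adjusted p under 0.05 by Pearson's r. Replicate 2 at 0.5 nM and replicate 3 at 5 µM were the lowest arrays of their groups for these genes, and also for NFKBIE and CD83. Untreated replicate 2 was likewise the lowest of its group for NFKB2, RELB and TNFAIP3, but not for NFKBIE or CD83. On replicate 3 at 5 µM the signals lay 0.11, 0.15 and 0.14 log2 below the group mean for NFKB2, RELB and TNFAIP3, while NFKBIA lay 0.17 above its own. NFKB2, RELB and TNFAIP3 each had exactly the same value on replicate 1 at 0.5 nM as on replicate 2 at 5 µM. The 9 values of these genes are thus not all distinct. Pearson's r was 0.82 between NFKB2 and TNFAIP3 (n = 9 arrays, two-sided exact permutation p = 0.00787), and Spearman's rho was 0.88 (exact p = 0.00271). It was 0.81 between NFKB2 and RELB (n = 9, exact permutation p = 0.0102, rho 0.82 with exact p = 0.00919). It was 0.79 between RELB and TNFAIP3 (n = 9, exact permutation p = 0.0111, rho 0.94 with exact p = 0.000628). Each had an adjusted p of 0.104 over the 28 pairs by Pearson's r. By rho the adjusted p was 0.0379, 0.0858 and 0.0176 in the same order. NFKBIA, a target of NF-kB too, had r of -0.53 with NFKB2, -0.74 with RELB and -0.38 with TNFAIP3, and NFKB1 had -0.15, 0.09 and -0.24 with the same genes. For the NFKBIA pairs rho was -0.22, -0.34 and -0.20. With each group's mean taken out, their r was -0.37, -0.73 and -0.56. It was 0.08, 0.26 and 0.36 without the 2 arrays farthest from the median of NFKB2, RELB and NFKBIA, in that order.

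The correlations of NFKB2 with RELB and TNFAIP3 were lower without 2 arrays. These were the arrays farthest from the NFKB2 median, replicate 3 at 5 µM and replicate 2 at 0.5 nM. Without them r fell to 0.42 between NFKB2 and TNFAIP3 and to 0.31 between NFKB2 and RELB. Leaving out a gene's extremes narrows its range, so the lower r cannot show how far the correlations rest on these arrays. Between RELB and TNFAIP3 r was 0.91 without the arrays farthest from the RELB median, replicate 3 at 5 µM and untreated replicate 1. With each group's mean taken out, r was 0.93, 0.80 and 0.88 for the same pairs. Of the other 8745 probe sets, 0.732% correlated with NFKB2 as highly as TNFAIP3 did and 0.743% as highly as RELB did. The mean of the 2916 dimmest probe sets, to which NFKB2 and TNFAIP3 belong, ran from 5.33 to 5.36 log2 over the arrays. It was lowest on replicate 2 at 0.5 nM and next lowest on replicate 3 at 5 µM. On untreated replicate 2, the lowest of its group for NFKB2, RELB and TNFAIP3, the mean was 5.36, the highest of the untreated arrays. Its r with the members over the 9 arrays was 0.62 for NFKB2, 0.61 for TNFAIP3 and 0.49 for RELB, the 3 highest of the 8, and -0.34 to 0.37 for the other members. With group means taken out it was 0.58, 0.67 and 0.39 for these genes. They were then no longer the 3 highest, since NFKBIE, at 0.391, lay above RELB, at 0.387. The part of this mean in the correlations was not tested.

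**Figure D3:**
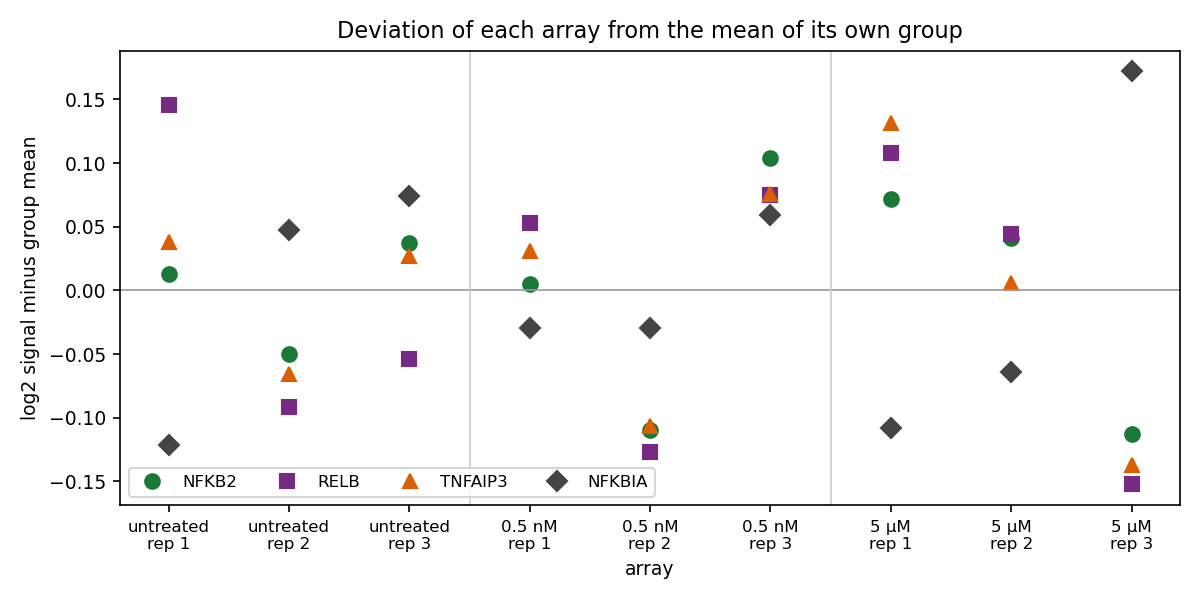
Log2 signal of NFKB2, RELB, TNFAIP3 and NFKBIA on each array minus the mean of that array's own group (y axis), for the 9 arrays by group and replicate (x axis). NFKB2, RELB and TNFAIP3 lie below 0 on untreated replicate 2, on replicate 2 at 0.5 nM and on replicate 3 at 5 µM. On the last of these arrays NFKBIA lies 0.17 above 0.

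CD83 had the smallest p over the 3 groups, and the genes whose course over the 9 arrays was most like it were found among 7839 probe sets of other genes. They were KCNE5, a potassium channel subunit (Pearson's r = 0.95), the neuronal kinase MAPK10 (0.94), LY6G6C (0.93), the cytochrome oxidase subunit COX8A (0.92) and SERPINA2 (0.90). KCNE5, LY6G6C and SERPINA2 lay in the dimmest set. The values of these 5 genes are given with no test, since they were picked for their likeness. Among the other members the highest r with CD83 was 0.39. The lowest was -0.69, for NFKB1 (exact permutation, adjusted p = 0.203 over the 28 pairs). With each group's mean taken out, r with CD83 was 0.91 for NFKBIE and -0.88 for NFKB1.

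The rest of the pathway was followed through 105 genes in lists for its proteins and targets, 81 of them measured by a probe set of a single symbol. At 5 µM against untreated 0 of the 81 passed by limma in either direction, and 3 had an unadjusted p under 0.05, which is 3.7% against 7.71% of all probe sets. At 0.5 nM 0 of 81 passed, and 3 had an unadjusted p under 0.05, which is 3.7% against 4.04% of all. Between the doses 0 of 81 passed, against 0.16% of all probe sets, and 1, the SUMO ligase PIAS1, had an unadjusted p under 0.05, which is 1.23% against 4.44% of all. The median over the 81 was 0.0044 log2 at 5 µM and 0.0029 at 0.5 nM against untreated. Of the 81, 39 lay in the dimmest set.

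Of the receptors that feed NF-kB, 15 of 16 were measured and 12 of these lay in the dimmest set, among them the tumour necrosis factor receptors TNFRSF1A and TNFRSF1B and the Toll-like receptors TLR2 and TLR4. The member with the smallest p at 5 µM was the neurotrophin receptor NGFR, at 0.11 ± 0.05 log2 (limma's adjusted p = 0.655). At 0.5 nM it was AGER, the gene of RAGE, at 0.12 ± 0.05 (limma's adjusted p = 0.979), which averaged 5.94 log2 over all arrays. NGFR and AGER both lay in the dimmest set. The medians of the list were 0.0022 and -0.0013 at 5 µM and 0.5 nM.

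Between receptor and inhibitor, 14 of 21 TRAF, ubiquitin and receptor adaptor genes and 11 of 17 kinases were measured. The adaptor TRAF5 had the smallest p of its list at both doses, at 0.14 ± 0.07 log2 at 5 µM and 0.19 ± 0.07 at 0.5 nM (limma's adjusted p of 0.653 and 0.979). Of the kinase list, IKBKG, the scaffold subunit of IkB kinase, had the smallest p at 5 µM, at -0.13 ± 0.06 (limma's adjusted p = 0.653). The interleukin-1 receptor kinase IRAK1 had it at 0.5 nM, at 0.18 ± 0.06 (limma's adjusted p = 0.979). Medians of the adaptor list were 0.03 at 5 µM and -0.02 at 0.5 nM, and those of the kinases -0.0052 and -0.03. Of a list of further subunits, IkB proteins and regulators of both, such as PIAS1, 4 of 10 were measured. The subunit REL, at 0.09 ± 0.05 at 5 µM, had the smallest p there (limma's adjusted p = 0.683) and lay in the dimmest set.

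Genes that NF-kB is known to induce were measured in 2 lists. Of 21 cytokine, chemokine and adhesion genes 19 were measured, 14 of them in the dimmest set, including IL6, CXCL8, TNF, IL1B, ICAM1 and VCAM1. Their fold changes ran from -0.10 to 0.08 log2 at 5 µM and from -0.03 to 0.08 at 0.5 nM. CXCL2, at -0.10 ± 0.05, had the smallest p at 5 µM and the lymphotoxin gene LTA, at 0.08 ± 0.05, at 0.5 nM (limma's adjusted p of 0.653 and 0.979). CXCL2 lay in the dimmest set and LTA above it. Of 20 survival and other intracellular targets 18 were measured. MYC had the smallest p at 5 µM, at -0.27 ± 0.09 (limma's adjusted p = 0.541). It was followed by PLAU at -0.11 (adjusted p = 0.591) and the survival gene BCL2L1 at 0.09 (adjusted p = 0.646), both named after their values were seen. At 0.5 nM the prostaglandin synthase PTGS2 had the smallest p, at 0.10 ± 0.05 (limma's adjusted p = 0.979). PLAU and PTGS2 lay in the dimmest set, and MYC and BCL2L1 above it.

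**Figure D4:**
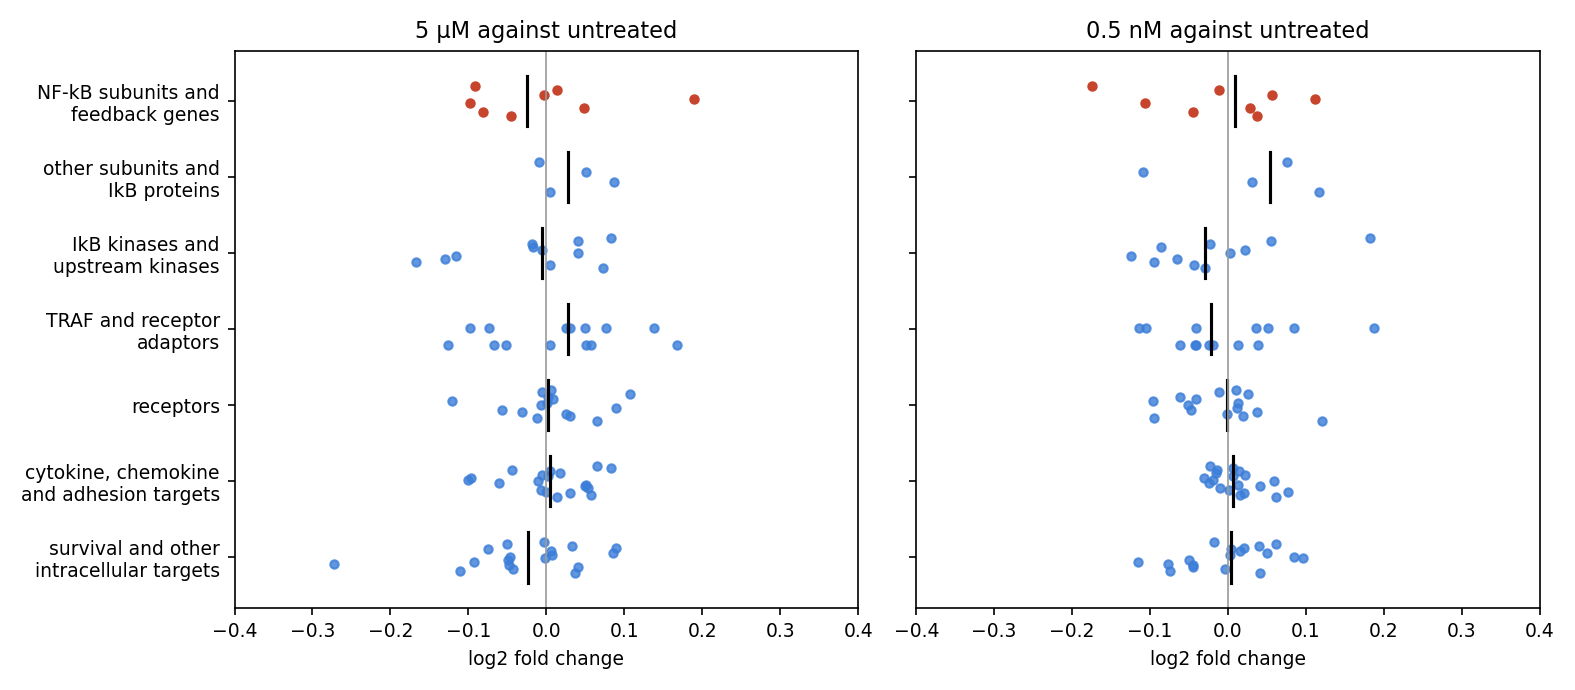
Log2 fold changes against untreated cells (x axis) at 5 µM and 0.5 nM for the 8 members and for the genes of 6 pathway lists (rows), 1 point per probe set, with vertical bars for medians. No point passed limma's threshold, and the lowest is MYC at 5 µM, at -0.27.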

How the data were processed

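RNA from LAN-5 cells was measured on 9 arrays, 3 per group, grouped by the sample titles. The deposited values, 1 per probe set and array, run from 4.37 to 14.5 and were read as log2. GCRMA is named in the submitters' processing notes, without a version or settings. GCRMA corrects background by probe sequence, which may compress differences of dim probe sets. The table held 8793 probe sets, of which 47 manufacturer's controls were left out. Of the remaining 8746, 7840 had 1 gene symbol, 388 several and 518 none in the platform annotation, and 7838 of the 7840 were updated through RefSeq.

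Groups were compared with limma (version 3.58.1, R 4.3.3, default lmFit and eBayes) on all 9 arrays, with no intensity filter, no covariate and Benjamini-Hochberg adjustment over 8746 probe sets in each of 3 comparisons. The prior had 3.62 degrees of freedom and an SD of 0.07 log2. With so few arrays the 95% interval of a fold change at 5 µM had a median half-width of 0.134 log2. Permuting 3 against 3 arrays exactly gives at best p = 0.1, which is why limma, which pools the spread, was used. The procedure was also run on simulated data with independent noise and seeded shifts larger than any member's fold change. That run does not show whether changes of the members' size would be found. Arrays with the same replicate number were not treated as pairs in the main fit, since the sample titles give no pairing beyond the number. Their deviations from group means correlated at -0.006 to 0.291, and those of differently numbered arrays at -0.319 to 0.309. For replicate 3 the correlations were 0.255, 0.291 and 0.242 in the 3 comparisons. Whether the numbers mark a shared source of variation was not tested.

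All 8 members are named. Of each pathway list, up to 4 genes past the threshold would be named, or the 1 with the smallest p, and the 5 genes most like the member with the smallest F-test p. The members and lists were chosen with earlier results of these data known. Exact permutation tests for correlations enumerated all orders of the 9 arrays. They treated the arrays as exchangeable and took no account of groups or replicate numbers. Alternatives were an intensity filter, quantile normalization, median centring, an intensity trend, no moderation, a replicate block, fits of only 2 groups and leaving out each array.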

Additional observations from a re-analysis of the deposited data

How the results depend on the processing

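None of the members' fold changes passed the threshold under any of the 378 alternative values computed for the 24 results (8 genes in 3 comparisons). Of these, 350 kept their direction and 28 did not, all of results no larger than 0.08 log2 in size. The direction of NFKBIE at 5 µM against untreated turned with quantile normalization (0.0216) and median centring (0.0196), and that of TNFAIP3 at 0.5 nM with the same settings (0.0081 and 0.0158). When 1 array was left out, results that turned ranged as follows. At 5 µM against untreated NFKB1 ran from -0.0860 to 0.0085, RELA from -0.0284 to 0.149, NFKBIE from -0.0251 to 0.0276 and TNFAIP3 from -0.0519 to 0.0825. At 0.5 nM against untreated NFKB1 ran from -0.0038 to 0.0907, NFKB2 from -0.0973 to 0.0096, RELA from -0.0484 to 0.129 and TNFAIP3 from -0.0492 to 0.0418. Between the doses NFKB2 ran from -0.0908 to 0.0203, RELA from -0.0198 to 0.0782, RELB from -0.0549 to 0.0848, NFKBIA from -0.0079 to 0.132 and TNFAIP3 from -0.0405 to 0.0938. NFKBIA at 5 µM against untreated ran from 0.10 to 0.24 over its alternatives with adjusted p of 0.427 to 0.872, and CD83 at 0.5 nM from -0.23 to -0.13 with adjusted p of 0.504 to 1.

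Counts over all probe sets moved more. They were 16 at 5 µM against untreated, 14 between the doses and 14 over the 3 groups. Without moderation each was 1, in fits of only the 2 groups the first was 5 and the second 2, and after quantile normalization the second was 22. With 1 array left out they ran from 1 to 17, 1 to 10 and 1 to 9. The replicate block gave 12, 15 and 12, and 0 at 0.5 nM as in the other fits, and changed no call of a member. With the block, NFKBIA at 5 µM against untreated had an unadjusted p of 0.00959 by limma, with an adjusted p of 0.427. In the main fit its unadjusted p was 0.0387. The block treats same-numbered arrays as matched. The sample titles give them only a number in common, so whether this matching is real is not known. The filter on dim probe sets leaves out NFKB2 and TNFAIP3, which have no value there, and dim signals limit what can be seen for 39 of the 81 pathway genes.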
